A study of Mus musculus with 15 samples.

Results

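The genes described here are 8 genes that mark stem cells of the hair follicle, namely Lgr5, Lgr6, Lhx2, Sox9, Nfatc1, Lrig1, Krt15 and Cd34. They were chosen by gene symbol, with earlier results of these data known. Each symbol matched 1 row, so they are 8 of the 18929 mouse genes in the table. All 8 were among the 15369 genes that passed the filter on low counts. RNA from dorsal skin was sequenced in 15 samples, with 3 in each of 5 groups. All samples carry the genotype label WT and, by the study's methods, came from young male balb/c mice a few weeks old at the start. In 4 groups a full-thickness round wound of 10 mm or 15 mm on the dorsal midline had been filled with Matrigel beads, a gel of basement membrane proteins. The beads were either all acellular, or high cell density beads (HDB) laden with mesenchymal stem cells (MSCs) and interspaced with acellular ones. The fifth group is normal skin with no wound and no beads. The MSCs were human umbilical cord cells, and the table lists mouse genes only. By the methods the skin was taken several weeks after implantation, and the exact time is given differently in different places. An acellular bead group is the control for HDB at its own wound size, and no wound without beads was analysed here. Nothing states whether the 3 samples of a group are 3 animals, so p-values measure the spread between these samples, which may be technical.

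The bulge is a niche in the outer root sheath, below the sebaceous gland, where slowly cycling stem cells are kept between rounds of hair growth. At the start of a growth phase (anagen), cells of the bulge and of the hair germ beneath it divide and rebuild the lower follicle, whose matrix then makes the hair shaft. After wounding, follicle stem cells also supply keratinocytes to the healing epidermis. The 8 genes mark overlapping parts of this system. Lgr5 marks the lower bulge, the hair germ and the outer root sheath of growing follicles, Lgr6 and Lrig1 mark the isthmus and junctional zone above the bulge, and Krt15, Cd34, Sox9, Lhx2 and Nfatc1 are best known from the bulge itself. None of them is restricted to the follicle.

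RefSeq promoter sequence was given for 4 of the 8 members, and is shown because Lhx2, Lrig1 and Cd34 passed the test between wounds and normal skin while Lgr6 did not, and because 3 of the members encode factors that bind DNA. Each run is the stretch of the promoter window that lies upstream of every annotated start of the gene, in GRCm38.p6, written 5′ to 3′ on the gene's own strand. Capitals mark the letters GGAAA or TTTCC (the core that NFAT proteins bind) and ACAAT or ATTGT (a core that SOX proteins bind).
Lhx2, chr2:38339031-38339270, plus strand: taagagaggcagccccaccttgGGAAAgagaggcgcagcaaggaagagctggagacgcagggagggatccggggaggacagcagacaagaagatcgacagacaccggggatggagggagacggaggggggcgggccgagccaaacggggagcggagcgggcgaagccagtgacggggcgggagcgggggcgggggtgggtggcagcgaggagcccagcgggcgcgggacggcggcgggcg
Lrig1, chr6:94700299-94700395, minus strand: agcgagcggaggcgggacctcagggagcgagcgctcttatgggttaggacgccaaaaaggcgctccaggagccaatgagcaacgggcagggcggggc
Cd34, chr1:194938571-194938818, plus strand: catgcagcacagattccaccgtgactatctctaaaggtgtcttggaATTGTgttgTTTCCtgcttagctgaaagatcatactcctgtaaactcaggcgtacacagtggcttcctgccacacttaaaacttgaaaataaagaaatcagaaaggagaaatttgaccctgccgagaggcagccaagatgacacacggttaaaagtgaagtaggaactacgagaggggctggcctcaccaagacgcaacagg
Lgr6, chr1:135105375-135105526, minus strand: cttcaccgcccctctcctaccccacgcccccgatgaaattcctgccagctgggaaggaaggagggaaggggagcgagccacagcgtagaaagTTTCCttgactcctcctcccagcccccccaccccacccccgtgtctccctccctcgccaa
The stretches of Lhx2, Cd34 and Lgr6 held 1 NFAT core each, that of Cd34 also held 1 SOX core, and that of Lrig1 held neither. In the whole 300-base windows of the 4 genes, which reach past the start, an NFAT core was found for Lhx2, Cd34 and Lgr6 and a SOX core for Cd34, Lgr6 and Lrig1. TAATTA, a core that LIM-homeodomain proteins such as LHX2 bind, and CTTTGA or TCAAAG, the core of the TCF and LEF factors of the Wnt pathway, were in none of the 4 stretches or windows. Over 32851 windows of 300 bases around gene starts, searched on both strands, an NFAT core was in 61.3%, a SOX core in 31%, TAATTA in 5.29% and a TCF or LEF core in 16%. A match is a description of letters only.

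Total counts lay between 15840551 and 18404188 per sample. Levels are given as CPM, the count relative to the library's TMM-scaled total, and every member had whole-number counts in all 15 samples, from 102 reads (Lgr5) to 74047 (Krt15). The tissue label fits its markers, since the basal keratinocyte keratins Krt5 and Krt14 had means of 1592 CPM or more in every group. Skeletal muscle genes summed to 44615 to 54100 CPM in normal skin and to 566 to 32042 CPM in wounds. The acellular 15 mm group was the least even. Its replicate 1 held 10410 CPM of a list of hair shaft and matrix genes, against 10.9 to just under 12 CPM in normal skin, and the lowest level of Krt15, Lgr6, Nfatc1 and Cd34 among all 15 samples.

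Per kilobase of transcript, which allows genes to be compared, Krt15 was by far the most abundant member, with a mean over the samples of 1434 CPM per kb. Cd34 followed with 78.3, Lrig1 with 39.2 and Sox9 with 17.8 CPM per kb. Nfatc1 and Lhx2 both stood at 12.9, Lgr5 at 10.1 and Lgr6 at 9.47 CPM per kb. The last 4 genes were thus at similar levels, and the ranges of their samples overlapped. The lengths are those of the longest coding transcript in the annotation.

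The first comparison asks how skin regrown in a bead-filled wound differs from normal skin. Lgr5, Sox9, Lhx2 and Lrig1 were higher in wounds than in normal skin, Cd34 was lower, and Krt15, Lgr6 and Nfatc1 did not pass the test. With the 12 wound samples set against the 3 normal samples, 5 of the 8 members were called by edgeR's quasi-likelihood test at a Benjamini-Hochberg adjusted p under 0.05, where 30.9% of all genes tested were called. Higher calls covered 4 of 8 members against 14.2% of all genes, and lower calls 1 of 8 against 16.7%. The median log2 fold change of the members was 0.68, and that of all genes was 0.045. Since the members were chosen with earlier results of these data known, these shares and medians are a description. In 4 members (Lgr5, Sox9, Lhx2 and Lrig1) every wound sample lay above every normal sample, as did 9.86% of all genes. In bulk skin, more cells of a type and more RNA per cell cannot be told apart.

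**Figure D1:**
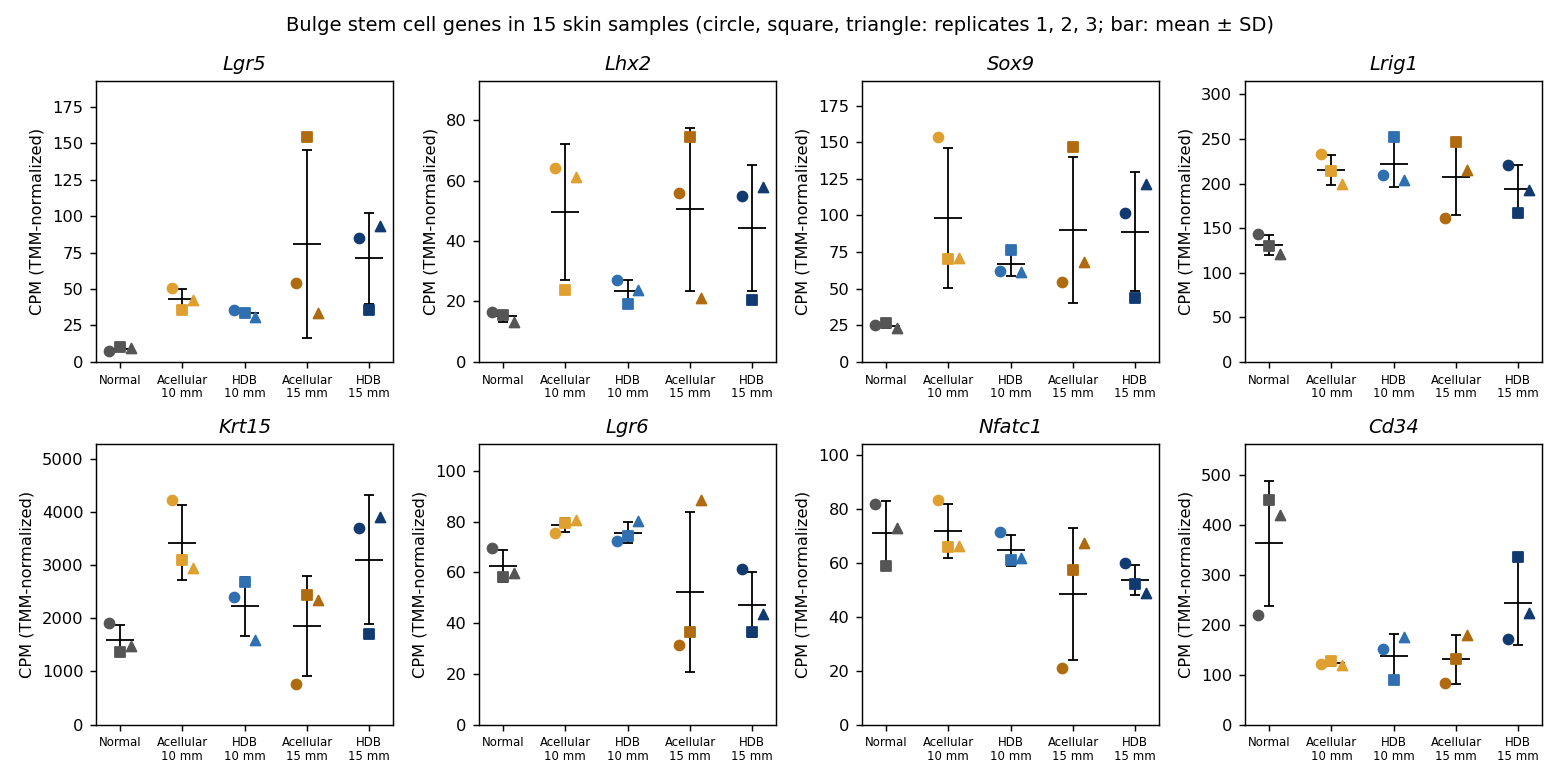
TMM-normalized CPM of the 8 genes (y axis, from 0) in the 15 samples by group (x axis); circles, squares and triangles are replicates 1, 2 and 3, and bars are the group mean ± SD (n = 3). In the 4 upper panels every wound sample lies above the normal samples, while Cd34 is highest in normal skin at 219 to 451 CPM.

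Lgr5 (Entrez 14160, GRCm38 chromosome 10, 115450311 to 115587780) encodes a receptor for R-spondins, secreted proteins that strengthen Wnt signalling. Its levels were 7.17, 10.2 and 9.79 CPM in normal skin, 50.5, 35.7 and 42.4 in acellular 10 mm wounds, 35.5, 33.5 and 31.0 in HDB 10 mm wounds, 54.4, 154 and 33.6 in acellular 15 mm wounds and 85.3, 35.4 and 93.0 in HDB 15 mm wounds. Every wound sample lay far above the highest normal sample, and the samples of the 15 mm groups were spread most widely. Over all wounds Lgr5 was 5.90-fold higher than in normal skin (log2 fold change 2.56, SE 0.448, edgeR adjusted p = 0.00296). An exact two-sided permutation test over the 455 ways to choose the normal samples gave p = 0.0022, the smallest it can give. Group means rose in the order normal (9.07 ± 1.66 CPM, SD, n = 3), HDB 10 mm (33.3 ± 2.24), acellular 10 mm (42.9 ± 7.41), HDB 15 mm (71.2 ± 31.2) and acellular 15 mm (80.7 ± 64.5), and the last 3 groups overlapped one another. Lgr5 was called in each wound group on its own.

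Sox9 (Entrez 20682, chromosome 11, 112782224 to 112787760) encodes a transcription factor needed to set up the follicle stem cell pool and the outer root sheath. Normal skin had 25.2, 26.3 and 22.9 CPM. Acellular 10 mm wounds had 153, 70.2 and 71.1 CPM, HDB 10 mm wounds 62.3, 76.2 and 61.6, acellular 15 mm wounds 54.2, 147 and 68.2, and HDB 15 mm wounds 102, 43.6 and 121. No wound sample came near the normal samples, and replicate 1 of acellular 10 mm and replicate 2 of acellular 15 mm were the highest. The difference was 3.43-fold (log2 fold change 1.78, SE 0.382, edgeR adjusted p = 0.00648; exact permutation p = 0.0022). Sox9 was also called in each wound group on its own, though in HDB 10 mm only just, with an edgeR adjusted p of 0.04998 that rose to 0.0561 with no filter on low counts and to 0.0504 with RLE scaling, and no longer passed without any 1 of the HDB 10 mm or normal samples (0.0534 to 0.149).

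Lhx2 (Entrez 16870, chromosome 2, 38339281 to 38369733) encodes a LIM-homeodomain transcription factor of the bulge and hair germ. Normal skin had 16.4, 15.6 and 13.1 CPM. The wound samples fell into a lower and a higher set, both of them present in 3 of the 4 wound groups. Acellular 10 mm wounds had 64.0, 23.6 and 61.3 CPM, acellular 15 mm wounds 55.8, 74.3 and 21.2, and HDB 15 mm wounds 54.9, 20.4 and 57.8, while HDB 10 mm wounds had 27.0, 19.3 and 23.7 CPM. Lhx2 was 2.67-fold higher over all wounds (log2 fold change 1.42, SE 0.420, edgeR adjusted p = 0.0248; exact permutation p = 0.0132). This call needed all 3 normal samples. Without normal replicate 1, 2 or 3 the log2 fold change was 1.48, 1.44 or 1.32 and the edgeR adjusted p 0.0716, 0.0807 or 0.104. By group, Lhx2 was called in acellular 10 mm (log2 fold change 1.72) and acellular 15 mm (1.75) and not in HDB 10 mm (0.63, edgeR adjusted p = 0.390) or HDB 15 mm (1.56, edgeR adjusted p = 0.0758).

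Lrig1 (Entrez 16206, chromosome 6, 94604529 to 94700158) encodes a membrane protein that restrains ERBB receptor signalling. It moved less than the 3 genes above but very evenly, from 144, 130 and 121 CPM in normal skin to between 162 and 252 CPM in the 12 wound samples, with a median of 212. The groups did not overlap, and the lowest wound sample was replicate 1 of acellular 15 mm. The difference was 1.59-fold (log2 fold change 0.67, SE 0.135, edgeR adjusted p = 0.00497; exact permutation p = 0.0022). The 4 group means lay between 194 ± 27.0 CPM (SD, n = 3, HDB 15 mm) and 222 ± 26.2 (HDB 10 mm), and the samples of these groups overlapped.

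Krt15 (Entrez 16665, chromosome 11, 100131758 to 100135928) encodes a keratin of bulge cells that basal keratinocytes also make. Normal skin had 1920, 1359 and 1486 CPM. Acellular 10 mm wounds had 4227, 3095 and 2940 CPM, HDB 10 mm wounds 2400, 2678 and 1599, acellular 15 mm wounds 767, 2437 and 2347, and HDB 15 mm wounds 3702, 1713 and 3898. All wound samples but 3 lay above the normal samples. The log2 fold change over all wounds was 0.69 (SE 0.349, edgeR adjusted p = 0.144; exact permutation p = 0.15). Without replicate 1 of acellular 15 mm, the sample at 767 CPM, it was 0.79 with an edgeR adjusted p of 0.0355.

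Lgr6 (Entrez 329252, chromosome 1, 134983301 to 135105276), the other R-spondin receptor among the members, did not move with Lgr5. Its levels were 69.5, 58.0 and 59.7 CPM in normal skin, 72.2 to 80.7 CPM over the 6 samples of the 10 mm wounds, 31.5, 36.6 and 88.5 in acellular 15 mm wounds and 61.5, 36.6 and 43.7 in HDB 15 mm wounds. The 10 mm samples thus all lay above normal skin and the 15 mm samples on both sides of it. Over all wounds the log2 fold change was -0.012 (SE 0.246, interval of 2 SE on each side from -0.50 to 0.48, edgeR adjusted p = 0.976). In acellular 15 mm alone it was -0.26, and -0.87 (edgeR adjusted p = 0.00551) without replicate 3, the sample at 88.5 CPM.

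Nfatc1 (Entrez 18018, chromosome 18, 80606205 to 80713071) encodes a calcineurin-regulated transcription factor that holds bulge stem cells in quiescence. Normal skin had 81.8, 58.9 and 72.8 CPM and wounds 20.9 to 83.3 CPM, with a median of 61.2. Replicate 1 of acellular 15 mm was the lowest, and the other 11 wound samples lay at 49.0 CPM or above. The log2 fold change was -0.27 (SE 0.239, interval from -0.75 to 0.21, edgeR adjusted p = 0.400).

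Cd34 (Entrez 12490, chromosome 1, 194938819 to 194961279) encodes a surface glycoprotein used to sort mouse bulge cells. Endothelium, dermal fibroblasts, mast cells and blood progenitors carry it too. Normal skin had 219, 451 and 421 CPM. Acellular 10 mm wounds had 121, 128 and 119 CPM, acellular 15 mm wounds 82.5, 131 and 181, HDB 10 mm wounds 151, 88.6 and 175, and HDB 15 mm wounds 172, 337 and 223. Only 2 wound samples, both HDB 15 mm, exceeded the lowest normal sample. Cd34 was 2.38-fold lower over all wounds (log2 fold change -1.25, SE 0.258, edgeR adjusted p = 0.00543; exact permutation p = 0.00659). Cd34 was called lower in 3 wound groups, with log2 fold changes of -1.57 (acellular 10 mm), -1.47 (acellular 15 mm) and -1.40 (HDB 10 mm), while HDB 15 mm had -0.58 (edgeR adjusted p = 0.314). Many marker genes of the other cell types that carry Cd34 were lower as well, beside 16.7% of all genes. All 10 endothelial genes fell, their sum going from 723 to 820 CPM in normal skin to 134 to 563 CPM in wounds. All 10 fibroblast genes had values below 0, and 4 of them were called lower (sum 7872 to 25390 CPM in normal skin and 3616 to 18964 in wounds). Of 7 mast cell and haematopoietic genes 3 were called lower (161 to 298 CPM and 72.5 to 269 CPM). Ptprc (log2 fold change 0.51) and Kit (0.48) of that list had values above 0 and were not called. Relative to the fibroblast list the log2 fold change of Cd34 was -0.21 (edgeR adjusted p = 0.616, with the median of all genes at 1.01), and relative to the endothelial list 0.27 (edgeR adjusted p = 0.441, with the median at 1.63). These scalings were chosen after seeing the data, and the part of each cell type in the change was not tested.

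**Figure D2:**
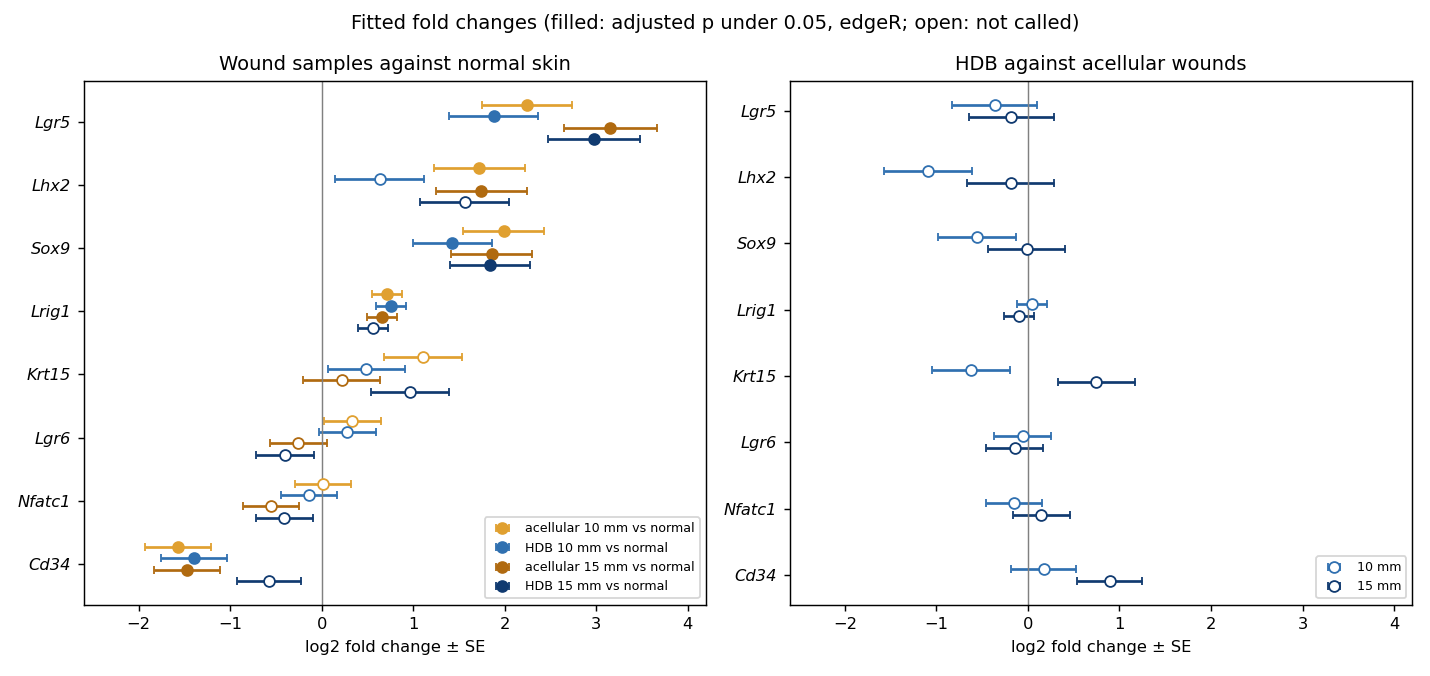
Fitted log2 fold change ± SE (x axis) of each gene (y axis) for each wound group against normal skin (left) and for HDB against acellular wounds of the same size (right); filled points have an edgeR adjusted p under 0.05. Lgr5 and Sox9 are filled in all 4 wound groups, and no point on the right is filled.

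By group, 5 members were called in acellular 10 mm wounds, where 20.3% of all genes were, with 4 higher (all genes 9.77%) and 1 lower (10.6%). In acellular 15 mm wounds 5 were called against 30.2% of all genes, with 4 higher (17.6%) and 1 lower (12.6%). In HDB 10 mm wounds 4 were called against 12.3%, with 3 higher (6.1%) and 1 lower (6.23%), and in HDB 15 mm wounds 2 were called against 5.18%, both higher (2.67%) and 0 lower (2.51%). Groups that did not overlap were common among all genes as well. In acellular 10 mm wounds 6 members lay wholly above normal skin (all genes 29.1%) and 1 wholly below (27.2%), in acellular 15 mm 4 (22.5%) and 1 (21.5%), in HDB 10 mm 5 (25.7%) and 1 (23.4%), and in HDB 15 mm 4 (23.8%) and 0 (22.6%). Over all wounds 0 members lay wholly below, as 11.1% of all genes did. The 2 genes called in HDB 15 mm were Lgr5 and Sox9. The 4 comparisons share the same normal samples, and whether the groups differ in their distance from normal skin was tested only through the HDB comparisons below. The counts leaned on single samples, as did those over all genes. In acellular 10 mm only 1 member was called without its replicate 1 or without normal replicate 3, and 2 without normal replicate 2. Calls over all genes were 800, 902 and 1095 in these fits, against 3125 with all samples. In HDB 10 mm none was called without HDB replicate 2 or 3 or normal replicate 2 or 3, 2 without normal replicate 1 and 3 without HDB replicate 1. In the same order the calls over all genes were 179, 277, 601, 78, 455 and 2725, against 1895 with all samples. In HDB 15 mm none was called without HDB replicate 1 or 3 or normal replicate 1 or 3, 1 without normal replicate 2, and 4 without HDB replicate 2. Over all genes the calls in these fits were 56, 43, 43, 34, 134 and 1340, against 796 with all samples. In acellular 15 mm 3 were called without normal replicate 3 (2304 over all genes), and 4 to 6 without any other (2631 to 5805), against 4642 genes with all samples. Each such fit has 1 sample less in an arm and tested 15524 to 15572 genes.

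The second comparison sets HDB against acellular beads in wounds of one size, and asks what the MSCs changed. No member was called in either wound size, over both sizes or for the difference between the sizes. At 10 mm 0 of 15369 genes were called by edgeR (0%, with 543 genes at an unadjusted p under 0.05 and 17 called by DESeq2), and at 15 mm 2.93% were (0.579% higher and 2.35% lower in HDB). At an unadjusted p under 0.05 stood 1 member in each wound size, 1 for the difference between sizes and 0 over both sizes. Among the 15369 genes the counts at that threshold were 3567 at 15 mm, 2063 for the difference and 2428 over both sizes. Over both sizes and for the difference 0 genes were called by edgeR.

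At 10 mm the largest difference among the members was that of Lhx2, with 23.3 ± 3.85 CPM (SD, n = 3) in HDB and 49.7 ± 22.6 in acellular wounds. Its log2 fold change was -1.09 (SE 0.482, unadjusted p = 0.0424, edgeR adjusted p = 1.00), and replicate 2 of the acellular group, at 23.6 CPM, lay among the HDB samples. Krt15 (2226 ± 560 CPM in HDB against 3421 ± 702) and Lgr5 (33.3 ± 2.24 against 42.9 ± 7.41) were lower in all 3 HDB samples than in any acellular sample, as were 6.47% of all genes, and 0 members were higher in this way (4.53%). The log2 fold changes were -0.62 (SE 0.422) and -0.36 (SE 0.466), and the exact permutation p of 0.1 is the smallest that 3 against 3 samples allow. Sox9 had 66.7 ± 8.22 CPM in HDB and 98.3 ± 47.8 in acellular wounds, the latter raised by the single sample at 153 CPM. Lrig1, Lgr6, Nfatc1 and Cd34 had log2 fold changes between -0.15 and 0.17. An interval of 2 SE on each side left room for a change of -0.28 to 0.37 in Lrig1, -0.68 to 0.56 in Lgr6, -0.77 to 0.46 in Nfatc1 and -0.53 to 0.88 in Cd34.

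At 15 mm the member with the lowest p was Cd34, with 172, 337 and 223 CPM in HDB and 82.5, 131 and 181 in acellular wounds. Its log2 fold change was 0.89 (SE 0.355, unadjusted p = 0.0265, edgeR adjusted p = 0.162), and HDB replicate 1 lay below acellular replicate 3. Between samples of the same number HDB was higher in 3 of 3 pairs. With the replicate block, which fitted 1 effect per number over all 5 groups, the log2 fold change was 0.92 (edgeR adjusted p = 0.15). At this size 0 members lay wholly above (all genes 8.55%) or wholly below (11.7%). The fibroblast list was higher in HDB for 9 of its 10 genes with none called. Relative to that list the value of Cd34 was -0.15, with the median of all genes at -1.13. The endothelial list was higher in HDB for 10 of its 10 genes with none called. Relative to that list the value of Cd34 was 0.44 (edgeR adjusted p = 0.572), with the median of all genes at -0.48. Krt15 had 3104 ± 1209 CPM in HDB and 1850 ± 940 in acellular wounds (log2 fold change 0.75, SE 0.423, edgeR adjusted p = 0.308), and without replicate 1 of acellular 15 mm the value was 0.38 (edgeR adjusted p = 0.644). Lgr5, Lhx2, Sox9, Lgr6, Nfatc1 and Lrig1 had log2 fold changes between -0.19 and 0.15. For Lgr5 and Lhx2 the intervals ran from -1.10 to 0.75 and from -1.14 to 0.77. For Lrig1 the interval was -0.43 to 0.22.

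Krt15 was the member whose HDB effect differed most between the wound sizes, being lower with HDB at 10 mm and higher at 15 mm. The difference of the 2 log2 fold changes was 1.37 (SE 0.597, unadjusted p = 0.0403, edgeR adjusted p = 0.342). Without replicate 1 of acellular 15 mm it was 1.00. Over both sizes Krt15 had a log2 fold change of 0.063 (interval from -0.53 to 0.66), and the exact permutation test within sizes gave p = 0.835.

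Since several members are also made by interfollicular keratinocytes, they were compared relative to basal keratinocyte genes as well. Basal keratinocyte genes were higher in wounds, with 3 of 6 called (Krt14 by 1.33, Krt5 by 1.07 and Trp63 by 0.80 on the log2 scale) and a summed level of 5879 to 16094 CPM against 4667 to 6387 CPM in normal skin. When levels were taken relative to this list, the median of all genes against normal skin was -0.56. On that scale Lgr5 was still higher (log2 fold change 1.86, edgeR adjusted p = 0.00126), as was Sox9 (1.09, edgeR adjusted p = 0.00480), and Cd34 was still lower (-1.89, edgeR adjusted p = 7.37e-04). Lhx2 (0.79, edgeR adjusted p = 0.105) and Lrig1 (0.048, edgeR adjusted p = 0.841) were not called, and Krt15 stood at 0.030. Nfatc1 (-0.91, edgeR adjusted p = 0.00378) was called lower and Lgr6 had -0.64 (edgeR adjusted p = 0.0503). On this scale 5765 of 15369 genes were called lower and 292 higher, and 2 of the 8 members were called lower and 2 higher. On this scale the median of the 8 members was 0.039.

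**Figure D3:**
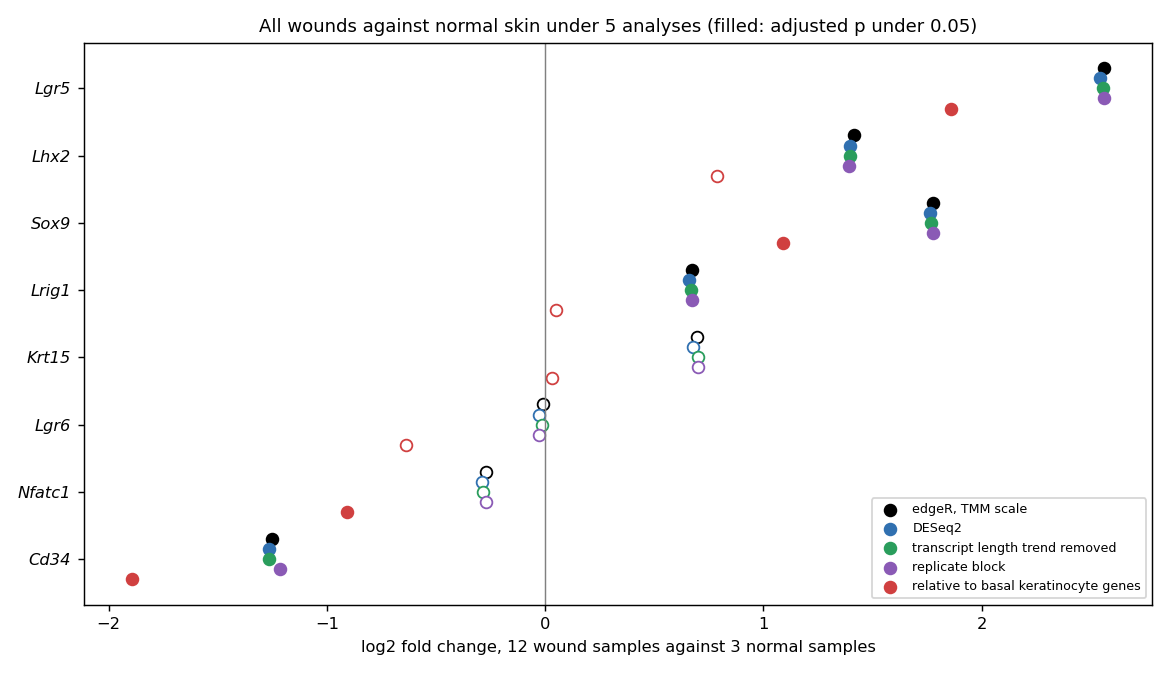
Log2 fold change (x axis) of each gene (y axis) between the 12 wound samples and the 3 normal samples under 5 analyses; filled points have an adjusted p under 0.05. The first 4 analyses nearly coincide for every gene, and relative to basal keratinocyte genes all values shift left, with Lgr5 (1.86), Sox9 (1.09), Nfatc1 (-0.91) and Cd34 (-1.89) filled.

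Within the 12 wound samples the members followed different tissue components, which is given here as a description over samples that share 4 groups. Lhx2, Lgr5 and Sox9 followed the list of other follicle stem cell and outer root sheath genes, with Pearson's r of log2 CPM over the 12 samples of 0.87, 0.77 and 0.82. Within groups r was 0.85, 0.92 and 0.85. Their r with the hair shaft and matrix list, made of hair keratins and matrix regulators that growing follicles express, was lower, at 0.80 for Lhx2, 0.62 for Lgr5 and 0.28 for Sox9. The 6 wound samples with the highest Lgr5, at 42.4 CPM or above, were the 6 with the highest Lhx2, at 54.9 CPM or above, and the 6 with the highest hair shaft sum, at 123 CPM or above. In the other 6 wound samples Lgr5 was at most 35.7, Lhx2 at most 27.0 and the hair shaft sum at most 77.8 CPM. The 6 high samples were replicates 1 and 3 of acellular 10 mm, 1 and 2 of acellular 15 mm and 1 and 3 of HDB 15 mm, and no HDB 10 mm sample was among them. The hair shaft sum was 22.9 to 30.7 CPM in HDB 10 mm and under 12 CPM in normal skin. The same 6 samples had the highest sums of the R-spondin and LGR list too, at 271 CPM or above against 266 or less, although r with that list was -0.018 for Lgr5 and 0.37 for Lhx2, and 5 of the 6 were shared with the other follicle list. These counts were made after the values were seen. Of the 6 highest samples of Sox9, 5 were shared with the hair shaft list. Krt15 shared 4, Lrig1 shared 3, and Lgr6, Nfatc1 and Cd34 shared 2 each.

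Lrig1 and Krt15 followed the basal keratinocyte list, with r of 0.90 and 0.82, as did Sox9 (0.77) beside the follicle list, and Cd34 followed the fibroblast list (0.82), the endothelial list (0.78) and the mast cell and haematopoietic list (0.77). Nfatc1 had r of 0.75 with the basal keratinocyte list and Spearman's rho of 0.48. Between members, r over the 12 wounds was 0.79 for Lgr5 and Lhx2, 0.72 for Lgr5 and Sox9 and 0.68 for Lhx2 and Sox9, and it was -0.57 for the receptors Lgr5 and Lgr6. Cd34 had r of -0.0056 with Lgr5 and -0.26 with Lhx2.

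**Figure D4:**
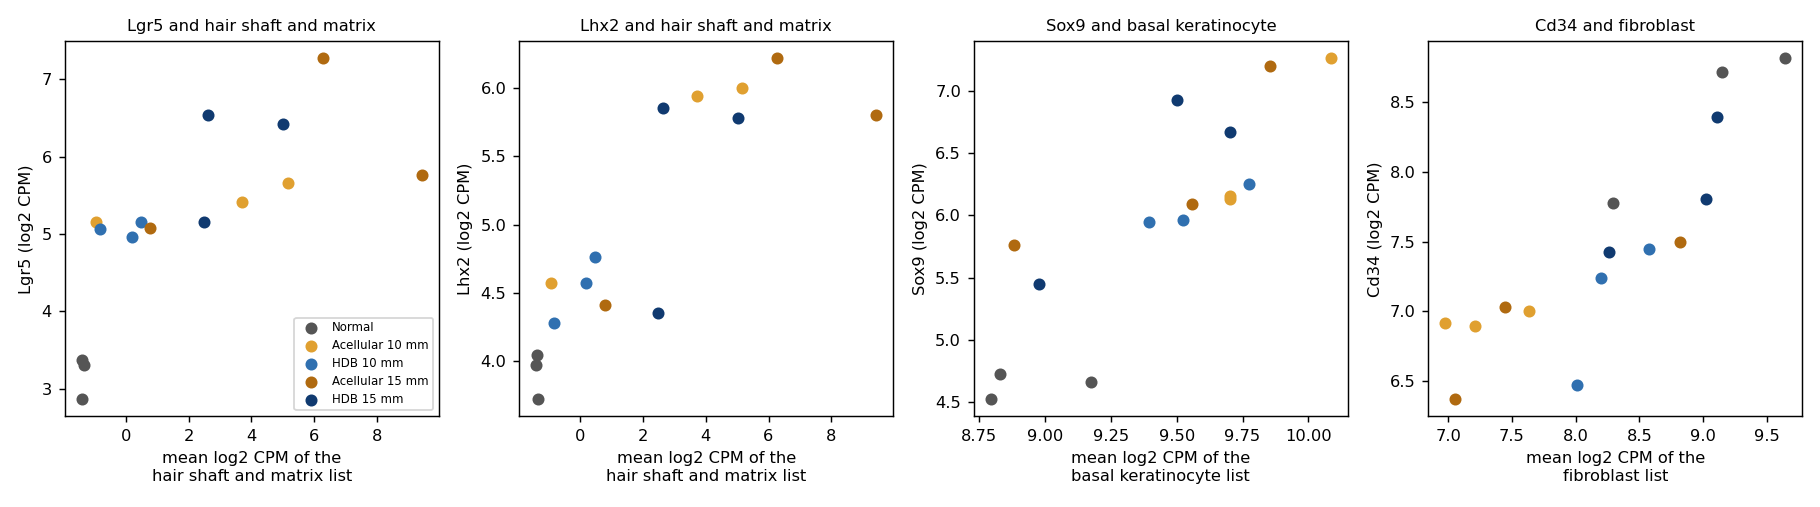
Log2 CPM of Lgr5, Lhx2, Sox9 and Cd34 (y axes) against the mean log2 CPM of a marker list (x axes), with 1 point per sample coloured by group (15 samples). Lgr5 and Lhx2 rise with hair shaft genes within the wounds, with all 3 normal samples at the lower left, and Cd34 rises with fibroblast genes in normal and wound samples alike.

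Genes tied to the members by pathway were followed in lists written for this purpose. On the TMM scale, 9 of 20 other follicle stem cell and outer root sheath genes were higher and 2 lower in wounds than in normal skin (all genes 14.2% higher and 16.7% lower), with a median log2 fold change of 0.69. Krt17, a keratin of the outer root sheath and of wound keratinocytes, rose by 1.78 (edgeR adjusted p = 0.00941), Runx1, a regulator of follicle stem cell activation, by 1.66 (0.00266), and Plet1, a marker of the upper isthmus, by 1.31 (0.0138). Krt17 averaged 319 ± 32.4 CPM in normal skin (SD, n = 3) and 654 to 1571 CPM in the wound groups. Of the 20 genes 13 had values above 0, and some went the other way. Bmp6 averaged 13.3 CPM in normal skin and 4.19 to 7.54 in the wound groups. Tcf7l1 averaged 21.3 and 10.7 to 18.1 CPM, and Cd200 78.8 and 52.7 to 67.6 CPM. Of 12 genes of the R-spondin and LGR pathway 1 was called over all wounds (all genes 30.9%), namely Lgr4, the third receptor of the family, with a log2 fold change of 0.87 (SE 0.229, edgeR adjusted p = 0.0148). The Lgr4 means were 53.0 ± 2.54 CPM in normal skin and 102.8, 80.2, 111 and 97.2 CPM in acellular 10 mm, HDB 10 mm, acellular 15 mm and HDB 15 mm wounds. By group, 4 of 12 genes of the list were called in acellular 15 mm (all genes 30.2%), Lgr4 alone in acellular 10 mm (20.3%), and 0 of 12 in HDB 10 mm (12.3%) and HDB 15 mm (5.18%), and the differences between groups were not tested. In acellular 15 mm the list summed to 735 CPM in replicate 1 and to 351 and 257 CPM in the others.

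Of 6 LRIG family members and ERBB receptors, 4 were higher in wounds (all genes 14.2%), as Lrig1 was. Erbb3 rose by 0.69 (edgeR adjusted p = 0.00464), Erbb2 by 0.63 (0.00821) and Egfr by 0.58 (0.0119) on the log2 scale. At 15 mm Egfr was lower in HDB than in acellular wounds by edgeR (79.7 ± 9.33 CPM against 137 ± 35.8, SD, n = 3, log2 fold change -0.78, adjusted p = 0.0427), the only gene of any list called between HDB and acellular wounds. No gene at all was called in this comparison without any 1 of the 3 HDB 15 mm samples, with the length trend removed, relative to basal keratinocyte genes or with only the groups compared, so the Egfr call was lost there. Of 8 NFAT and calcineurin genes, 4 were lower in wounds (all genes 16.7%) and 0 higher (14.2%). Nfatc2 had 44.1 ± 8.02 CPM in normal skin and 17.6 to 20.1 CPM in the wound groups (log2 fold change -1.21, edgeR adjusted p = 0.00220), and the calcineurin subunits Ppp3ca and Ppp3cb fell by 0.76 and 0.70. Calcineurin is also abundant in skeletal muscle, whose genes had higher sums in normal skin (above), and the part of muscle in this change was not tested.

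The medians of these pathway lists kept their sign by DESeq2, with RLE scaling, with the length trend removed and with the replicate block. Relative to basal keratinocyte genes, which shifts the median of all genes to -0.56 and calls 5765 of 15369 genes lower and 292 higher, the other follicle genes had a median of 0.037 (3 higher and 5 lower), the R-spondin and LGR genes -0.075 (0 higher and 1 lower), and the LRIG and ERBB genes -0.093 (0 called), while the NFAT and calcineurin genes had a median of -1.01 with 5 of 8 called lower. Of the cell type lists, the hair shaft and matrix list had 4 of 11 tested genes called higher over all wounds (all genes 14.2%), the skeletal muscle list 1 of 8 lower and the adipocyte list 3 of 5 lower (all genes 16.7%). These counts depended on the setting, being 11, 5 and 5 by DESeq2 and 9, 8 and 5 relative to basal keratinocyte genes.

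The genes whose pattern over the 15 samples was most like that of a member were found by the highest Pearson's r of log2 CPM among all genes tested. Such values include the shared step between wounds and normal skin. For Lgr5 they were Hr (r = 0.96), the hairless gene of follicle regression, Rin2 (0.96) and Eya2 (0.96). For Lhx2 they were Lgr4 (0.94), Efna5 (0.93) and Afdn (0.92), and for Sox9 Ildr1 (0.97), Tgif1 (0.96) and Nebl (0.96). For Lrig1 they were Rgs12, Cxadr and C1qtnf12 (0.95 to 0.96), and for Krt15 Mtmr11 (0.96), Slc7a6 (0.95) and Anxa2 (0.93). Lgr6 was most like Ttc39a (0.93), Vwa2 (0.90) and Tjp3 (0.90), Nfatc1 like Adamts14 (0.95), Slc2a12 (0.94) and Trim7 (0.93), and Cd34 like Clec3b, Medag and Uap1 (all 0.97). Within the 12 wounds alone r was still 0.96 for Lgr5 and Hr, 0.91 for Lhx2 and Lgr4 and 0.95 for Cd34 and Clec3b.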

How the data were processed

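RNA-seq of 15 mouse skin samples was used. The authors aligned the reads and deposited 1 table of expected counts per gene as RSEM estimates them, not normalized. The submitters' processing notes name HISAT2 2.0.4, Bowtie2 2.2.5, RSEM 1.2.12 and GRCm38.p6. Libraries were made from poly(A) RNA, and whether counting used strand is not given in the sources used here, so reads of an antisense transcript cannot be told apart from those of a member. Columns were matched to samples by name. Expected counts were rounded and tested in R 4.3.3 with edgeR 4.0.16 (TMM, filterByExpr, quasi-likelihood test, 1 fit of 5 group means, Benjamini-Hochberg adjustment over 15369 genes, threshold 0.05). The SE was derived from the log2 fold change and the F statistic of its test. A prior count of 2 was added for log2 CPM, on which exact two-sided permutation tests were run with 20 arrangements within a size, 400 over both sizes and 455 for normal skin. The members and the gene lists were chosen with earlier results of these data known. All members are named. From each list the genes with the highest mean or up to 3 called genes with the largest change could be named, and for likeness the 3 genes with the highest r. Some list genes that went the other way were named too. Alternatives were DESeq2 1.42.0, RLE scaling, no filter, a mean count of at least 50, the replicate number as a block, removal of each sample's transcript length trend, levels relative to basal keratinocyte genes, only the groups compared, a minimum size of 1 for the log2 fold change and leaving out each replicate. Same-number samples deviated together only between the 15 mm groups (correlations 0.397, 0.167 and 0.183). Numbers were read as pairing samples there, with no source for the pairing other than these data. The replicate block was not confined to those groups, since it fitted 1 shared effect per number over all 15 samples. Every pair of replicates differed by more than sampling noise. On simulated counts of all wounds against normal skin, 55.5% of 200 genes changed by a log2 of 1 were recovered among 15278 genes, and 94.5% of those changed by 2. For HDB against acellular at 15 mm the shares were 46.0% (15283 genes) and 86.0% (15277 genes).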

Additional observations from a re-analysis of the deposited data

How the results depend on the processing

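Over all wounds against normal skin, 4 to 6 of 8 members were called under every setting run. Lgr5, Sox9, Lhx2, Lrig1, Krt15 and Nfatc1 kept their direction in all of them. Relative to basal keratinocyte genes, though, Lrig1 was only 0.048 and Krt15 only 0.030. In the 4 comparisons of HDB with acellular wounds 0 members were called under every setting, the replicate block included. Total counts were similar in all samples, and what limits the calls was not tested. Against normal skin the count for HDB 15 mm (2 in the report) was 4 by DESeq2, 4 with only the groups compared, 1 relative to basal keratinocyte genes, 1 with the replicate block, 1 with the block and the length trend removed, and 0 to 4 leaving out each replicate. For HDB 10 mm (4) it was 2 relative to basal keratinocyte genes, with the replicate block and with the block and the length trend removed, 5 with only the groups compared, and 0 to 3 leaving out each replicate. For acellular 15 mm (5) it was 2 with only the groups compared and 3 to 6 leaving out each replicate, and for acellular 10 mm (5) it was 7 with only the groups compared, 6 by DESeq2, 4 relative to basal keratinocyte genes and 1 to 5 leaving out each replicate. The causes were not tested.

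The counts over all genes moved as well. Between HDB and acellular wounds at 15 mm the 450 genes called became 2174 by DESeq2, 695 at a mean count of at least 50, 199 with no filter, 179 with the replicate block, 57 with a minimum log2 size of 1 and 0 with the length trend removed, relative to basal keratinocyte genes or with only the groups compared, and 0 to 2322 leaving out each replicate. Over both sizes and for the difference between sizes, 0 became 424 and 868 by DESeq2. Against normal skin, DESeq2 called 5058 genes in acellular 10 mm (3125 by edgeR), 3804 in HDB 10 mm (1895) and 2864 in HDB 15 mm (796). With the replicate block the last 2 counts were 1187 and 237. These edgeR counts leaned on single samples too. Dropping 1 replicate at a time left 78 to 2725 genes called for HDB 10 mm and 34 to 1340 for HDB 15 mm. The acellular counts became 800 to 1853 (10 mm) and 2304 to 5805 (15 mm, 4642 with all samples).

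Many signs turned where values lay near 0, but some turned from larger values. Lrig1 in acellular 10 mm against normal skin turned from a called 0.71. Against normal skin Cd34 turned from called values of -1.57 (acellular 10 mm), -1.47 (acellular 15 mm), -1.40 (HDB 10 mm) and -1.25 (all wounds). Relative to basal keratinocyte genes, HDB against acellular became 0.21 (Lgr6) and 0.13 (Nfatc1) at 10 mm, 0.047 (Sox9) at 15 mm, 0.047 (Lgr6), 0.22 (Nfatc1) and 0.13 (Lrig1) over both sizes and -0.038 (Lgr5) for the difference between sizes. Against normal skin on that scale, acellular 10 mm gave -0.55 (Lgr6), -0.89 (Nfatc1) and -0.18 (Lrig1), the last a call that was lost, acellular 15 mm -0.39 (Krt15), and HDB 10 mm -0.15 (Krt15) and -0.34 (Lgr6). Cd34 relative to fibroblast genes gave, for HDB against acellular, -0.87 (10 mm), -0.15 (15 mm) and -0.51 (both sizes), and 0.26 for acellular 10 mm against normal skin. Relative to endothelial genes it was -0.58 at 10 mm and -0.070 over both sizes, and against normal skin 0.58 (acellular 10 mm), 0.028 (acellular 15 mm), 0.0055 (HDB 10 mm), 0.46 (HDB 15 mm) and 0.27 (all wounds). With the length trend removed, HDB against acellular was 0.12 (Lgr6), 0.071 (Sox9) and 0.041 (Lrig1) at 15 mm, -0.015 (Krt15), 0.049 (Nfatc1) and 0.029 (Lrig1) over both sizes and 0.24 (Lgr6) and 0.023 (Lrig1) for the difference. With the replicate block added to this, the 15 mm values were 0.048 (Lgr5), 0.16 (Lgr6), 0.082 (Sox9) and 0.045 (Lrig1), those over both sizes -0.026 (Krt15), 0.019 (Lgr6), 0.052 (Nfatc1) and 0.031 (Lrig1), and the differences 0.28 (Lgr6) and 0.029 (Lrig1). Nfatc1 over both sizes was 0.0024 by DESeq2 and by RLE scaling, 0.010 at a mean count of at least 50, 0.00041 with the replicate block and 0.012 with only the groups compared. Nfatc1 in acellular 10 mm against normal skin was -0.015 by DESeq2 and RLE scaling and -0.011 at a mean count of at least 50, where Sox9 at 15 mm was 0.0019.

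Leaving out each replicate moved HDB against acellular at 10 mm over -0.10 to 0.0011 (Lgr6), -0.039 to 0.11 (Lrig1) and -0.035 to 0.43 (Cd34). At 15 mm the ranges were -0.55 to 0.70 (Lgr5), -0.40 to 0.47 (Lgr6), -0.55 to 0.20 (Lhx2), -0.30 to 0.54 (Sox9), -0.21 to 0.46 (Nfatc1) and -0.25 to 0.041 (Lrig1). Over both sizes they were -0.12 to 0.21 (Krt15), -0.46 to 0.17 (Lgr5), -0.23 to 0.21 (Lgr6), -0.18 to 0.15 (Nfatc1) and -0.10 to 0.042 (Lrig1), and for the difference -0.19 to 1.06 (Lgr5), -0.35 to 0.53 (Lgr6) and -0.061 to 0.61 (Nfatc1). Against normal skin they were -0.12 to 0.12 (Nfatc1, acellular 10 mm), -0.029 to 0.59 (Krt15, acellular 15 mm), -0.87 to 0.0037 (Lgr6, acellular 15 mm) and -0.17 to 0.078 (Lgr6, all wounds). None of the members whose sign turned here was called in that comparison with all samples, and Lgr6 in acellular 15 mm was called only without its replicate 3.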
